A study of Rattus norvegicus with 60 samples.

Results

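The comparison described here is the tripling of an oral dose of p-toluidine in the rat: livers given 60 mg/kg were set directly against livers given 20 mg/kg, 5 arrays a side. Members were chosen by their sample titles, which name compound, dose and replicate, and gave 10 of the 60 arrays in the series. Every probe set that is not an array control was compared, 31042 of 31099.

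Male F344/N rats, 5 to 6 weeks old when the study began and housed 2 to a cage, received p-toluidine at 60 or 20 mg/kg by gavage in corn oil once a day for 5 consecutive days. Other rats received 1, 6 or 120 mg/kg or corn oil alone, and a parallel set received N,N-dimethyl-p-toluidine (DMPT), the same ring with methyl groups on the nitrogen. All groups shared the strain, the sex, the corn oil at 2.5 ml/kg and the same lobe of the liver (left lateral), and no group carried a transgene. RNA of whole liver was hybridised to a 3′ expression array, whose probe sets each report the level of a transcript on a log2 scale, so that a difference of 1 is a doubling. Whole tissue was measured, so fewer cells of a type and less RNA per cell cannot be told apart. No label links an array to an animal or a cage, so every p-value measures the spread between these samples.

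The 10 arrays resembled each other closely. Their median log2 levels lay between 2.73 and 2.79, each correlated with the others of its dose at a median r of 0.993 to 0.995, and no array stood apart. The first principal component of the 10 arrays held 22.9% of the variance and did not separate the doses. The second, with 16.2%, placed the arrays at 60 mg/kg at -0.0760 to 0.509 and those at 20 mg/kg at -0.467 to -0.0762, an order in which replicates 2 of the doses nearly met. The 3′ minus 5′ difference of the beta-actin control probe sets, which grows as RNA degrades, averaged 1.66 ± 0.23 at 60 mg/kg and 1.61 ± 0.23 at 20 mg/kg (SD, n = 5 each, two-sided exact permutation p = 0.778). All 15 measured hepatocyte markers had a mean log2 level of 7.04 or more over the 10 arrays.

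p-Toluidine is an aromatic amine, a class that the liver oxidises at the nitrogen and then conjugates, and the intermediates can react with protein and glutathione. Electrophiles modify the sensor KEAP1, which frees the transcription factor NRF2 to enter the nucleus and bind antioxidant response elements with small MAF proteins. Its known targets are the enzymes that reduce quinones and aldehydes, hydrolyse epoxides and conjugate glutathione, and in rat liver Gstp1 is also the classical marker of altered hepatocyte foci.

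From 20 to 60 mg/kg, a small set of genes moved, and the rises were led by enzymes of detoxification. With limma fitted to all 30 p-toluidine arrays and p-values adjusted by the Benjamini-Hochberg method over all 31042 probe sets, 33 probe sets passed an adjusted p of 0.05, the threshold for a call throughout (0.106% of those tested), with 18 higher and 15 lower at 60 mg/kg. They named 26 genes, of which 24 are described by the probe set of highest mean level and a settled symbol. Among the 14217 genes represented by 1 probe set each, 15 rose (0.106%) and 10 fell (0.0703%), and the median change over all of them was -0.0021. At an unadjusted p under 0.05 there were 2392 probe sets, where 1552.1 would be the 5% share. In 19 of the 24 genes the 5 arrays of one dose did not overlap those of the other, a pattern found in 235 of all 14217 genes (1.65%). The 24 genes were called on these same arrays, so the overlap only describes them and lends the calls no support. The count of calls was 10 without replicate 1 of 60 mg/kg and 53 without replicate 2 of it. It was 18 and 21 without replicates 4 and 5 of 60 mg/kg, 17 and 20 without replicates 4 and 5 of 20 mg/kg, and 5 when the 10 arrays were fitted alone. Of the 24 genes, Gstp1, Akr7a3, Ptgr1, Igfbp3, C1r and Fgl1 kept their call in all 10 fits that left out 1 array, 18 lost it in at least 1, and Gstp1 and Igfbp3 alone were called when the 10 arrays were fitted by themselves.

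**Figure D1:**
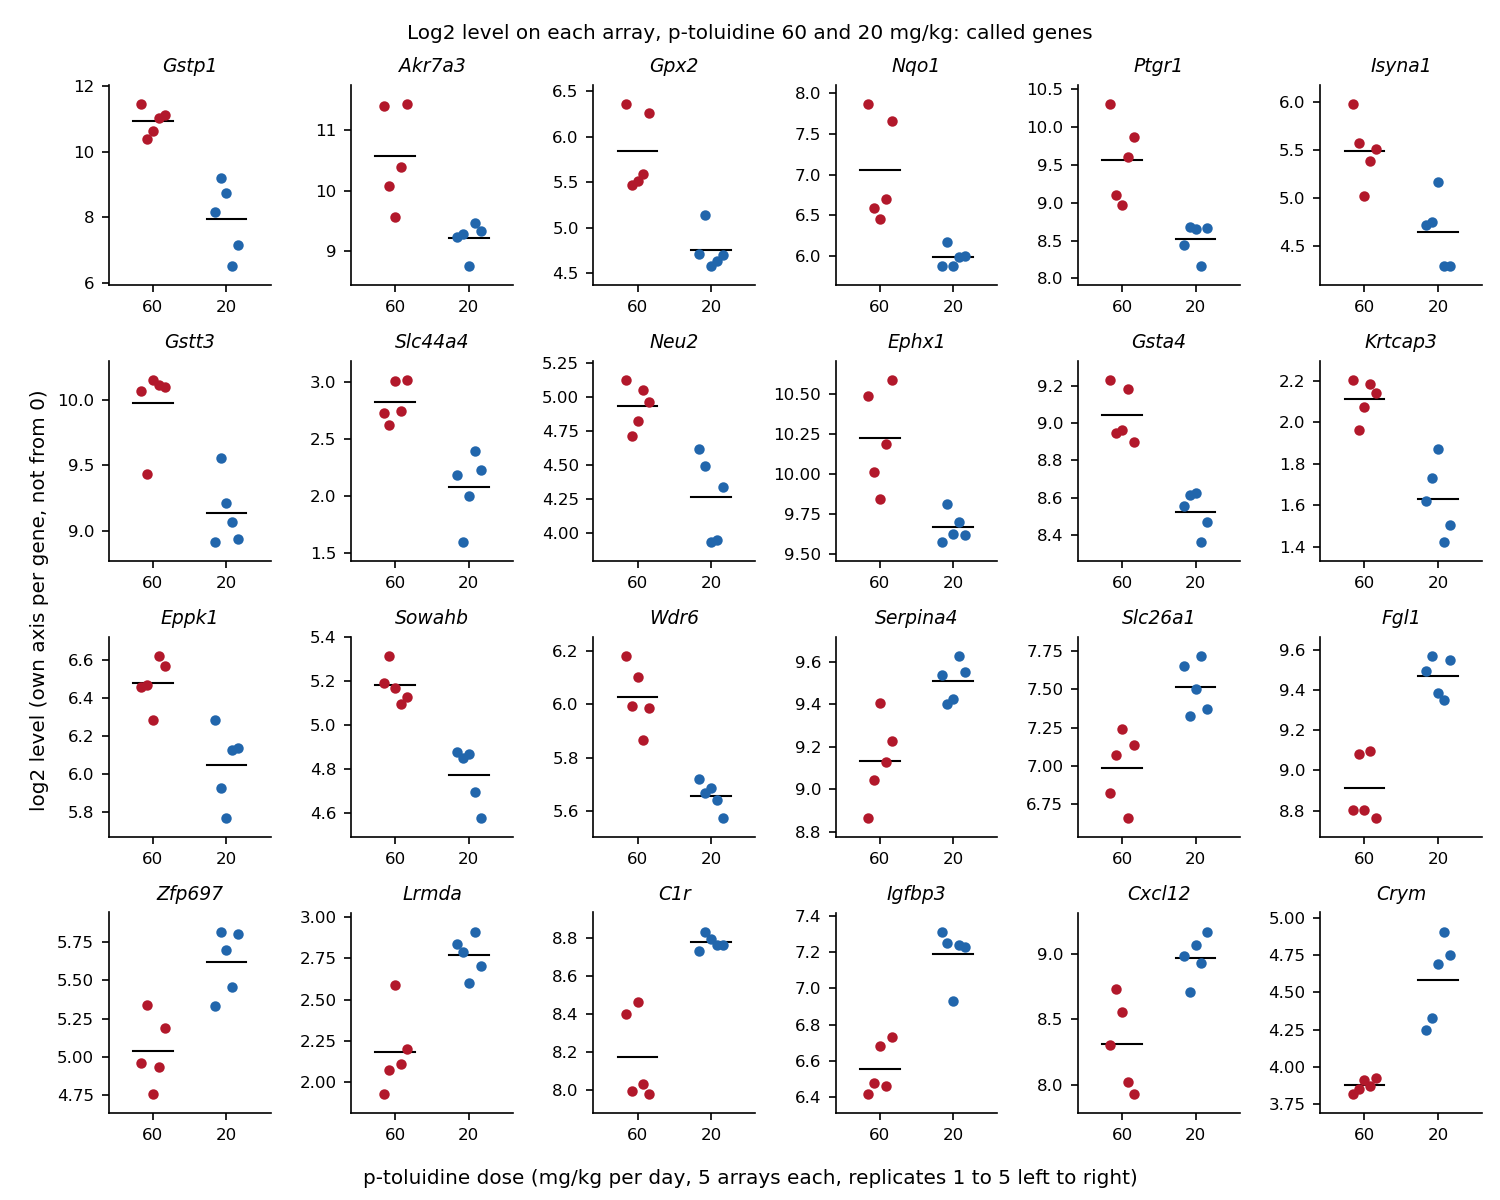
Log2 level (vertical axis, own range per gene) of the 24 called genes on each of the 5 arrays at 60 mg/kg (red, left) and 20 mg/kg (blue, right) of p-toluidine, with the mean as a bar. The 15 rises are shown first, from Gstp1 to Wdr6, then the 9 falls, from Serpina4 to Crym, and in 19 of the 24 panels the 2 doses do not overlap. The genes were chosen by the difference between these same arrays.

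Gstp1, the pi-class glutathione S-transferase, had the largest change of the called genes. Its log2 level was 11.47, 10.40, 10.63, 11.04 and 11.12 at 60 mg/kg, against 8.16, 9.19, 8.75, 6.52 and 7.15 at 20 mg/kg. All arrays at 60 mg/kg lay above all at 20 mg/kg, and the spread was wider at 20 mg/kg, where replicates 4 and 5 were lowest. The change was 2.98 ± 0.32 (log2, SE), a 7.89-fold higher level (limma adjusted p = 4.51e-06).

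Akr7a3, the aflatoxin aldehyde reductase, was measured at 11.40, 10.08, 9.56, 10.39 and 11.43 at 60 mg/kg, against 9.23, 9.28, 8.75, 9.46 and 9.34 at 20 mg/kg. The doses did not overlap, and replicates 1 and 5 of 60 mg/kg were the highest of that dose. The change was 1.36 ± 0.23 (2.57-fold, limma adjusted p = 0.00854).

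Nqo1, which reduces quinones to hydroquinones with both electrons at once, was measured at 7.87, 6.59, 6.45, 6.70 and 7.66 at 60 mg/kg, against 5.88, 6.18, 5.88, 5.99 and 6.00 at 20 mg/kg. Replicates 1 and 5 of 60 mg/kg were again the highest, and the lowest array at 60 mg/kg exceeded the highest at 20 mg/kg. The change was 1.07 ± 0.19 (2.10-fold, limma adjusted p = 0.0100). Gpx2, a glutathione peroxidase, was measured at 6.36, 5.47, 5.51, 5.59 and 6.26 at 60 mg/kg, against 4.72, 5.14, 4.58, 4.64 and 4.71 at 20 mg/kg. Replicates 1 and 5 of 60 mg/kg were the highest here too, without overlap, with a change of 1.08 ± 0.19 (2.12-fold, limma adjusted p = 0.00919). Without replicate 1 of 60 mg/kg the limma adjusted p was 0.0582 for Nqo1 and 0.0594 for Gpx2, and without replicate 5 it was 0.0522 for Nqo1.

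Ptgr1, prostaglandin reductase, which saturates the double bond of reactive alkenals, was measured at 10.31, 9.10, 8.97, 9.61 and 9.87 at 60 mg/kg, against 8.44, 8.67, 8.65, 8.16 and 8.66 at 20 mg/kg. Every array at 60 mg/kg exceeded every array at 20 mg/kg. The change was 1.06 ± 0.18 (2.08-fold, limma adjusted p = 0.00891). Ephx1, the microsomal epoxide hydrolase, was measured at 10.49, 10.01, 9.84, 10.19 and 10.59 at 60 mg/kg, against 9.57, 9.81, 9.62, 9.70 and 9.62 at 20 mg/kg. No overlap was seen here either, and the change was 0.56 ± 0.11 (1.47-fold, limma adjusted p = 0.0241). Its call was lost in 7 of the 10 fits without 1 array. In 6 of the 15 genes that rose, among them Akr7a3, Nqo1, Gpx2 and Ephx1, the 2 highest arrays at 60 mg/kg were replicates 1 and 5.

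Other glutathione S-transferases rose as well. Gstt3, of the theta class, was measured at 10.07, 9.43, 10.15, 10.11 and 10.10 at 60 mg/kg, against 8.91, 9.56, 9.21, 9.06 and 8.93 at 20 mg/kg. The doses overlapped, because replicate 2 of 60 mg/kg lay below replicate 2 of 20 mg/kg. The change was 0.84 ± 0.17 (1.79-fold, limma adjusted p = 0.0346), a call that was lost in 8 of the 10 fits without 1 array. Gsta4, of the alpha class, which conjugates 4-hydroxynonenal and other products of lipid peroxidation, was measured at 9.23, 8.95, 8.96, 9.18 and 8.90 at 60 mg/kg, against 8.55, 8.62, 8.63, 8.36 and 8.47 at 20 mg/kg. All arrays at 60 mg/kg lay above those at 20 mg/kg, and the change was 0.52 ± 0.09 (1.43-fold, limma adjusted p = 0.00919, or 0.0582 without replicate 1 of 60 mg/kg).

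The sequences just upstream of the genes that rose are shown for those holding the core of the antioxidant response element, TGACNNNGC, on either strand. RefSeq promoter windows of assembly GRCr8, each 300 bases from 250 before to 50 after the start of the gene, were found for 13 of the 15 genes that rose, and 3 of the 13 (Gstp1, Gpx2 and Ephx1) held the core. Over all 27457 genes with a window, 13.1% held it. Capitals mark the match, which is a description of the letters and not a measured binding site.
Gstp1 (chr1:210769656-210769955, minus strand): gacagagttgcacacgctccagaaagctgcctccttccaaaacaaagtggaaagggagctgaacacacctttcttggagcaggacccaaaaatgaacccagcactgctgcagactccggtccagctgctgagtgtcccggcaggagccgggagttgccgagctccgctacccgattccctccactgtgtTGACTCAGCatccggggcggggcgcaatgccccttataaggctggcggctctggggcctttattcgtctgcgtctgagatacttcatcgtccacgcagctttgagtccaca
Gpx2 (chr6:101229984-101230283, minus strand): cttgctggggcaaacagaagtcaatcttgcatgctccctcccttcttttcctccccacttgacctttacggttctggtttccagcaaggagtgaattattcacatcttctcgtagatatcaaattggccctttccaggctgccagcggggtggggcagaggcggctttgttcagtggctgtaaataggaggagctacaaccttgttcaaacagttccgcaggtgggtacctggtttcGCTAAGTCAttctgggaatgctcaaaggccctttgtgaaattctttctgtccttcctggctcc
Ephx1 (chr13:95263068-95263367, minus strand): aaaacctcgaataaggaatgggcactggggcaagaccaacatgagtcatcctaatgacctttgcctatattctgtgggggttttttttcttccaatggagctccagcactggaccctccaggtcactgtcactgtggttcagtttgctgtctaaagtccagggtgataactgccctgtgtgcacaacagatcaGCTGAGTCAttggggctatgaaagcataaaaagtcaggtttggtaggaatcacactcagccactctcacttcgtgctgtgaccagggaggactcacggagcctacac
In the Gstp1 window the match lay on the strand of the gene at 61 to 53 bases before the start. In the Gpx2 and Ephx1 windows it lay on the opposite strand, and Ephx1 has a second window without it. The core of the xenobiotic response element, GCGTG, bound by the aryl hydrocarbon receptor, was held by 6 of the 13 windows, against 32.4% of all genes with a window. Among the 9 genes that fell, 7 had a window, of which 1 (Slc26a1) held the antioxidant core and 4 the xenobiotic core.

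The remaining 7 genes that rose are on none of the lists used here. Isyna1, which makes inositol phosphate from glucose phosphate, was measured at 5.98, 5.57, 5.03, 5.38 and 5.51 at 60 mg/kg, against 4.72, 4.75, 5.17, 4.30 and 4.30 at 20 mg/kg. The doses overlapped, since replicate 3 of 20 mg/kg exceeded replicate 3 of 60 mg/kg, and the change was 0.85 ± 0.18 (limma adjusted p = 0.0346). Neu2, the cytosolic sialidase, was measured at 5.13, 4.71, 4.83, 5.06 and 4.97 at 60 mg/kg, against 4.62, 4.50, 3.94, 3.95 and 4.34 at 20 mg/kg, with no overlap and a change of 0.67 ± 0.12 (limma adjusted p = 0.00892, or 0.0570 without replicate 1 of 60 mg/kg). Slc44a4, a choline transporter-like protein, changed by 0.74 ± 0.15 (limma adjusted p = 0.0235) and Krtcap3 by 0.48 ± 0.10 (limma adjusted p = 0.0346). Both had low signal: their mean log2 levels at 20 mg/kg, 2.08 and 1.63, lay below the median probe set, at 2.76. Eppk1, the plakin-family linker of intermediate filaments, Sowahb and Wdr6 changed by 0.37 to 0.43. Without 1 array, the calls of Isyna1, Eppk1 and Wdr6 were lost in 8 of the 10 fits.

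The changes of the 9 genes that fell ran from -0.71 to -0.37. Igfbp3, the main carrier of insulin-like growth factors in plasma, was measured at 6.42, 6.48, 6.68, 6.46 and 6.73 at 60 mg/kg, against 7.31, 7.25, 6.93, 7.24 and 7.23 at 20 mg/kg. All arrays at 60 mg/kg lay below those at 20 mg/kg, and the change was -0.64 ± 0.11 (limma adjusted p = 0.00846), with the call kept under all 19 alternatives. Its second probe set also fell, by 0.52. Cxcl12, the chemokine ligand of CXCR4, was measured at 8.30, 8.73, 8.56, 8.02 and 7.93 at 60 mg/kg, against 8.99, 8.71, 9.07, 8.93 and 9.17 at 20 mg/kg. Replicate 2 of 60 mg/kg lay just above replicate 2 of 20 mg/kg, so the doses overlapped. The change was -0.67 ± 0.13 (limma adjusted p = 0.0214), and all 3 of its probe sets were called, with changes of -0.72, -0.67 and -0.52. The call of the Cxcl12 probe set listed by array was lost in 7 of the 10 fits without 1 array.

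C1r, a protease of the first complement component, was measured at 8.40, 8.0, 8.46, 8.03 and 7.98 at 60 mg/kg, against 8.73, 8.83, 8.80, 8.77 and 8.76 at 20 mg/kg. The arrays at 20 mg/kg were tightly grouped and all lay above those at 60 mg/kg. The change was -0.60 ± 0.10 (limma adjusted p = 0.0075). Fgl1, a fibrinogen-like protein secreted by hepatocytes, was measured at 8.81, 9.08, 8.81, 9.10 and 8.76 at 60 mg/kg, against 9.5, 9.57, 9.39, 9.35 and 9.55 at 20 mg/kg. Again there was no overlap, and the change was -0.56 ± 0.09 (limma adjusted p = 0.0075). Serpina4, or kallistatin, an inhibitor of tissue kallikrein, was measured at 8.87, 9.05, 9.40, 9.13 and 9.23 at 60 mg/kg, against 9.54, 9.40, 9.43, 9.63 and 9.55 at 20 mg/kg. Its highest array at 60 mg/kg, replicate 3, lay within the range at 20 mg/kg, and the change was -0.37 ± 0.07 (limma adjusted p = 0.0235).

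Crym, a cytosolic protein that binds thyroid hormone, was measured at 3.82, 3.85, 3.91, 3.87 and 3.92 at 60 mg/kg, against 4.25, 4.33, 4.69, 4.90 and 4.75 at 20 mg/kg. All 5 arrays at 60 mg/kg lay within about 0.1 of each other and below every array at 20 mg/kg, with a change of -0.71 ± 0.14 (limma adjusted p = 0.0192). Slc26a1, a sulfate transporter, was measured at 6.82, 7.07, 7.24, 6.66 and 7.13 at 60 mg/kg, against 7.65, 7.33, 7.50, 7.72 and 7.37 at 20 mg/kg. The ranges were separate, and the change was -0.53 ± 0.10 (limma adjusted p = 0.0173). Zfp697, a zinc finger protein, changed by -0.58 ± 0.11 with overlapping arrays, and Lrmda by -0.59 ± 0.11. The called probe set of Lrmda had low signal, with a mean log2 level of 2.18 at 60 mg/kg and 2.77 at 20 mg/kg. The median probe set was at 2.76. A still dimmer second probe set of Lrmda showed no such difference (0.0023).

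Igfbp3 and Cxcl12 are expressed in liver cells other than hepatocytes, so markers of such cells are given beside them. None of the 23 stellate cell and fibroblast markers passed the test, 19 of the 23 lay below 0, the median change was -0.10, and their summed linear level ranged from 1169 to 1445 at 60 mg/kg and from 1223 to 1502 at 20 mg/kg. In the step 8 of the 23 had an unadjusted p under 0.05, all lower. Against vehicle, 12 of the 23 were called lower at 60 mg/kg, with a median of -0.33 (3.59% of all genes were), and 0 at 20 mg/kg, with a median of -0.20 (0.457%). None of the 15 sinusoidal endothelium markers passed either, with 13 below 0 and sums of 794 to 962 at 60 mg/kg and 888 to 1011 at 20 mg/kg. The 17 Kupffer cell markers summed to 1441 to 2067 at 60 mg/kg and 1692 to 2021 at 20 mg/kg, with 12 below 0. The 15 hepatocyte markers summed to 68616 to 71458 at 60 mg/kg and 70020 to 73955 at 20 mg/kg. Of the stellate markers 5 and of the endothelial markers 1 had a mean below the median probe set. The part of these cells in the falls of Igfbp3 and Cxcl12 was not tested.

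Set against corn oil, 7 of the 15 rising genes had already passed the test at 20 mg/kg, and 0 of the 9 falling genes had. Both doses were compared with the same 5 vehicle arrays, and the genes were chosen on the same arrays at 60 and 20 mg/kg, so the values and counts are a description, given side by side only, and nothing is read from the shares of all genes beside them. At 60 mg/kg 1400 probe sets were called against vehicle (4.51%, 657 higher and 743 lower), and at 20 mg/kg 244 (0.786%, 150 higher and 94 lower). Of the 15 genes that rose in the step, 14 were also called higher at 60 mg/kg against vehicle (428 of the 14217 genes, 3.01%, were) and 7 at 20 mg/kg against vehicle (89 genes, 0.626%). Of the 9 that fell, all were called lower at 60 mg/kg against vehicle (510 genes, 3.59%) and 0 at 20 mg/kg (65 genes, 0.457%).

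Gstp1 stood 5.34 above vehicle at 60 mg/kg and 2.36 above it at 20 mg/kg on the log2 scale (SE 0.32 for each, limma adjusted p = 1.32e-12 and 0.000166). Akr7a3 stood 2.97 above vehicle at 60 mg/kg and 1.61 at 20 mg/kg, and Gstt3 2.34 at 60 mg/kg and 1.5 at 20 mg/kg, all called. Nqo1 was 1.52 above vehicle at 60 mg/kg (limma adjusted p = 5.52e-06) and 0.45 above it at 20 mg/kg (limma adjusted p = 0.356). Among the genes that fell, Igfbp3 was -0.64 from vehicle at 60 mg/kg and -0.0067 at 20 mg/kg by its brighter probe set. By its second it was -0.80 at 60 mg/kg and -0.28 at 20 mg/kg (95% interval -0.46 to -0.09, limma adjusted p = 0.164). C1r was -0.67 from vehicle at 60 mg/kg and -0.07 at 20 mg/kg, and Fgl1 -0.60 and -0.05 in the same order. For 6 of the 9, by 1 probe set each, the value at 20 mg/kg lay within 0.1 of vehicle. The others were lower there without passing the test. Slc26a1 was -0.37 from vehicle at 20 mg/kg (95% interval -0.57 to -0.17, limma adjusted p = 0.0720). Serpina4 was at -0.25 (-0.40 to -0.10, limma adjusted p = 0.109) and Crym at -0.21 (-0.49 to 0.07, limma adjusted p = 0.625). Sowahb, whose value was 0.18 above vehicle at 60 mg/kg and -0.22 from it at 20 mg/kg, was called in neither comparison with vehicle.

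**Figure D2:**
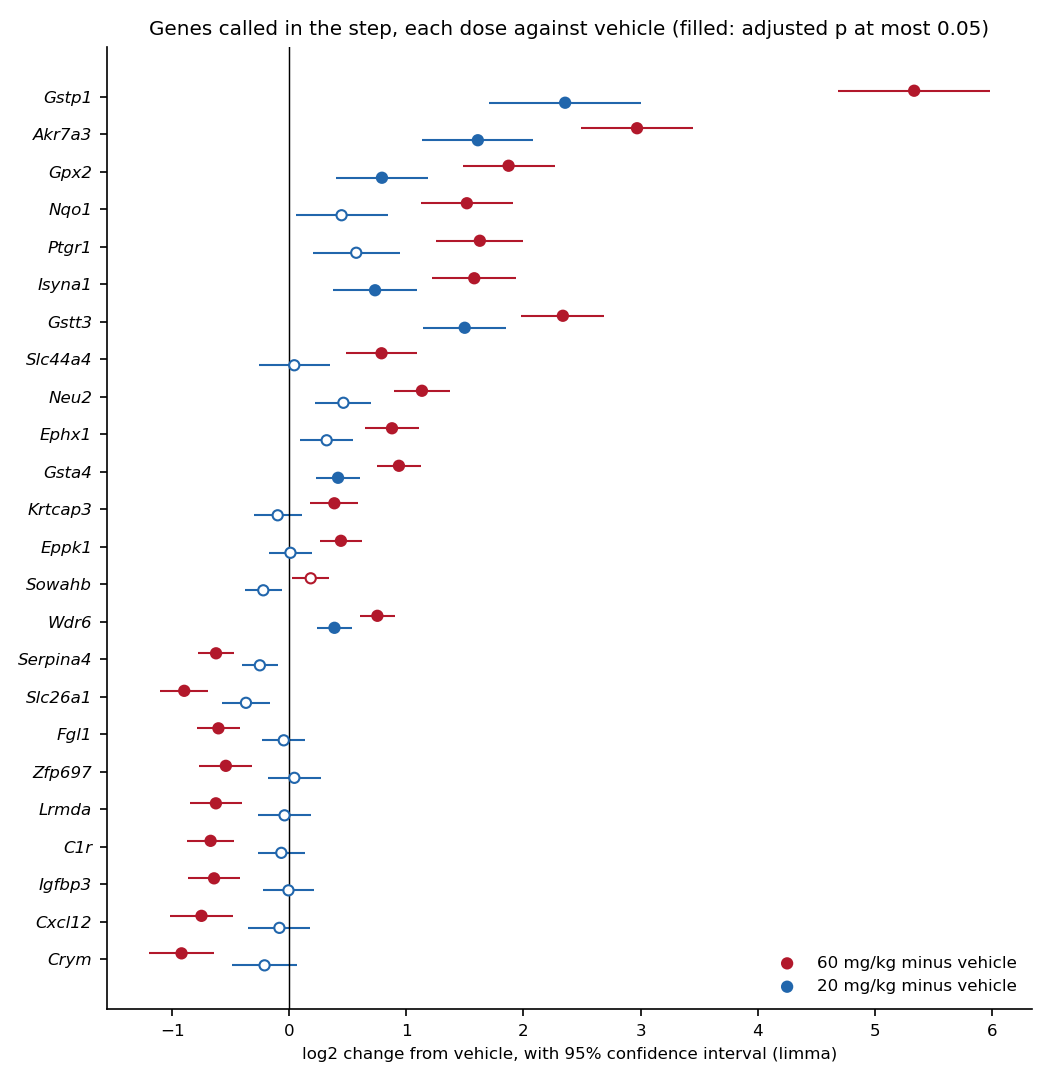
Log2 change from vehicle, with 95% confidence intervals from limma (horizontal axis), of the 24 genes called in the step (rows), at 60 mg/kg (red, upper) and 20 mg/kg (blue, lower). Filled points have an adjusted p of at most 0.05: 7 of the 15 genes that rose are filled at 20 mg/kg, from Gstp1 at 2.36 to Wdr6 at 0.39, and none of the 9 that fell.

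Over the full dose series, Gstp1 averaged 5.60 ± 0.38 with vehicle, 5.60 ± 0.27 with 1 mg/kg, 5.71 ± 0.50 with 6 mg/kg and 7.95 ± 1.11 with 20 mg/kg (log2 mean ± SD, n = 5 each). It averaged 10.93 ± 0.42 with 60 mg/kg and 12.00 ± 0.19 with 120 mg/kg. The step from 6 to 20 mg/kg was called for this gene alone (1 probe set of 31042, 0.00322%, change 2.24 ± 0.32, limma adjusted p = 0.00205). The step from 60 to 120 mg/kg, which shares the arrays at 60 mg/kg, called 260 probe sets (0.838%), and 7 of the 15 genes that rose between 20 and 60 mg/kg rose further in it (109 of 14217 genes, 0.767%, did), with Gstp1 at 1.07 ± 0.32 short of the threshold (limma adjusted p = 0.119). Of the 9 that fell, 3 (Cxcl12, Fgl1 and Serpina4) fell further (82 genes, 0.577%), and Igfbp3 had 0.02 and C1r -0.03. Cxcl12 passed there by its brightest probe set only, at -0.52 (limma adjusted p = 0.0482). Its other probe sets had -0.35 and -0.21 (limma adjusted p = 0.325 and 0.367).

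**Figure D3:**
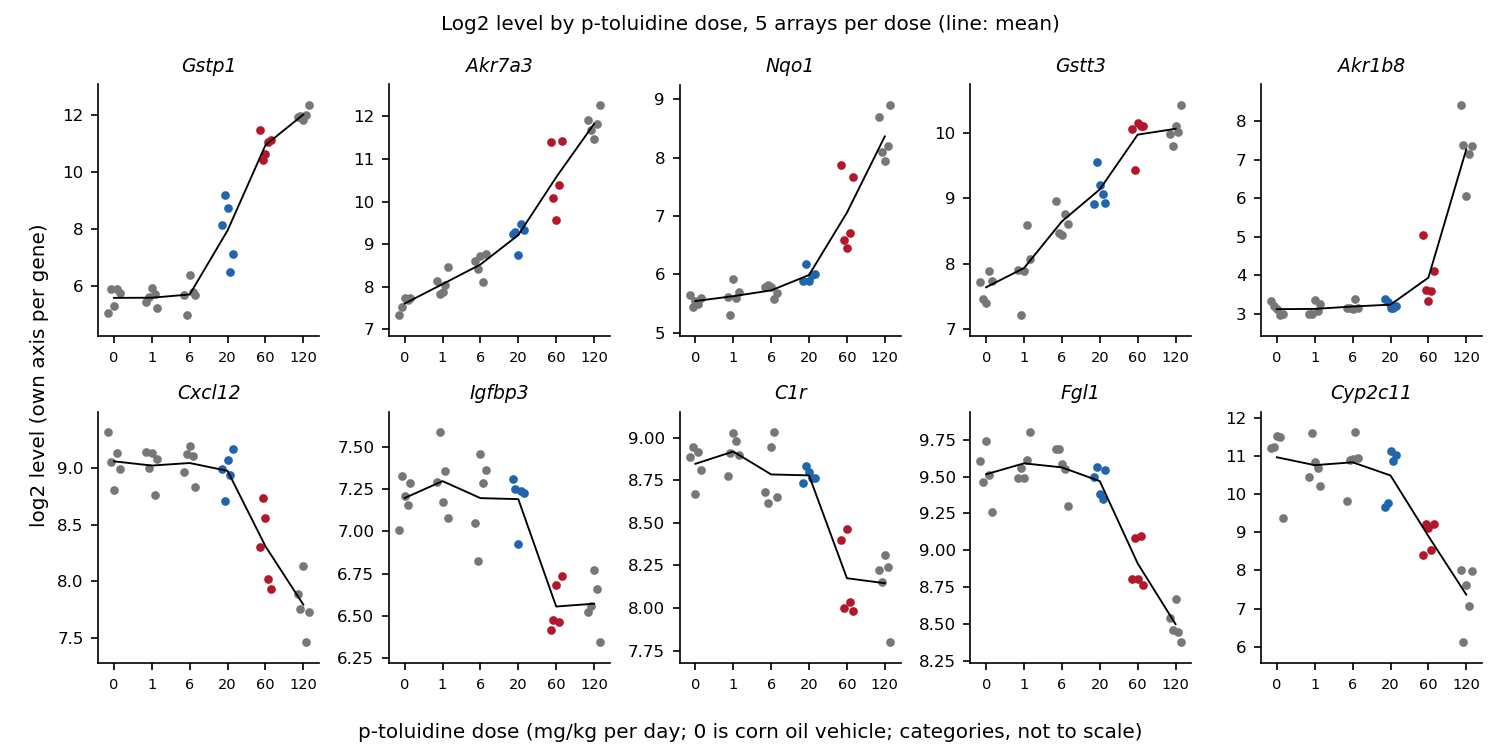
Log2 level (vertical axis, own range per gene) on 5 arrays at each p-toluidine dose from 0 (corn oil) to 120 mg/kg (horizontal axis, evenly spaced categories), with 20 mg/kg in blue, 60 mg/kg in red and the mean as a line. Gstp1 averages 5.71 at 6 mg/kg and 7.95 at 20 mg/kg, Akr1b8 separates at 120 mg/kg, and Igfbp3 (its brighter probe set), C1r and Fgl1 lie near vehicle at 20 mg/kg and below it at 60 mg/kg.

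The change over the 20 to 60 mg/kg step was tested against the changes over its neighbours, with which it shares arrays. The steps differ in the size of the dose increase, so these tests do not compare like steps. Against the step from 60 to 120 mg/kg, 3 of 31042 probe sets differed (0.00966%), and against the step from 6 to 20 mg/kg 0 did by limma, with 1382 at an unadjusted p under 0.05. One of the 3 belonged to Akr1b8, an aldo-keto reductase. Its levels were 3.38, 3.30, 3.16, 3.14 and 3.18 at 20 mg/kg, 5.04, 3.61, 3.33, 3.58 and 4.10 at 60 mg/kg and 8.41, 7.38, 6.05, 7.14 and 7.37 at 120 mg/kg. Replicate 1 of 60 mg/kg stood above the others of its dose, and all arrays at 120 mg/kg lay above all at the other doses. The change was 0.70 ± 0.26 from 20 to 60 mg/kg (limma adjusted p = 0.455) and 3.33 ± 0.26 from 60 to 120 mg/kg, and the first step minus the second was -2.63 ± 0.45 (limma adjusted p = 0.0252), a call lost in 6 of 15 fits without 1 array. A second probe set of Car2, a carbonic anhydrase, differed by -1.37 ± 0.22 (limma adjusted p = 0.0213), and an unnamed probe set by 1.26 ± 0.22 (limma adjusted p = 0.0255). The brightest probe set of Car2 was not called. Without 1 array, the call of the second Car2 probe set was lost in 5 of 15 fits and that of the unnamed one in 8. With only the 15 arrays of the 3 doses in the fit, 0 were called.

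The same step was taken with DMPT at matched doses, which makes 1 pair of compounds compared over all 31042 probe sets. With DMPT, 84 probe sets were called between 60 and 20 mg/kg (0.271%, 45 higher and 39 lower). The test of the difference, p-toluidine step minus DMPT step, called 0 probe sets by limma, with 1714 at an unadjusted p under 0.05 and a lowest adjusted p of 0.848. This does not show that the compounds act alike. Arrays of the 2 compounds had separate medians, 2.73 to 2.81 for p-toluidine and 3.53 to 3.61 for DMPT, so only changes within a compound were compared.

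Of the 15 genes that rose with p-toluidine, 5 were called higher with DMPT (30 of 14217 genes, 0.211%, were), and of the 9 that fell 2 were called lower, Igfbp3 and Serpina4 (27 genes, 0.19%). These counts take the brightest probe set of a gene, which for Cxcl12 had -0.29 with DMPT (limma adjusted p = 0.307). Its other probe sets had -0.39, which was called, and -0.43 (limma adjusted p = 0.0487 and 0.168). Akr7a3 changed by 1.36 ± 0.23 with p-toluidine and 1.57 ± 0.24 with DMPT, a difference of -0.22 (95% interval -0.89 to 0.46). Nqo1 changed by 1.07 with p-toluidine and 1.03 with DMPT, a difference of 0.04 (-0.52 to 0.59). For Gstp1 the value was 2.98 ± 0.32 with p-toluidine and 1.32 ± 0.35 with DMPT (limma adjusted p = 0.0749), and the difference of 1.66 (0.67 to 2.64) did not pass the adjustment (limma adjusted p = 0.897). C1r had -0.60 with p-toluidine and -0.16 with DMPT, a difference of -0.44 (-0.70 to -0.18) that did not pass either.

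**Figure D4:**
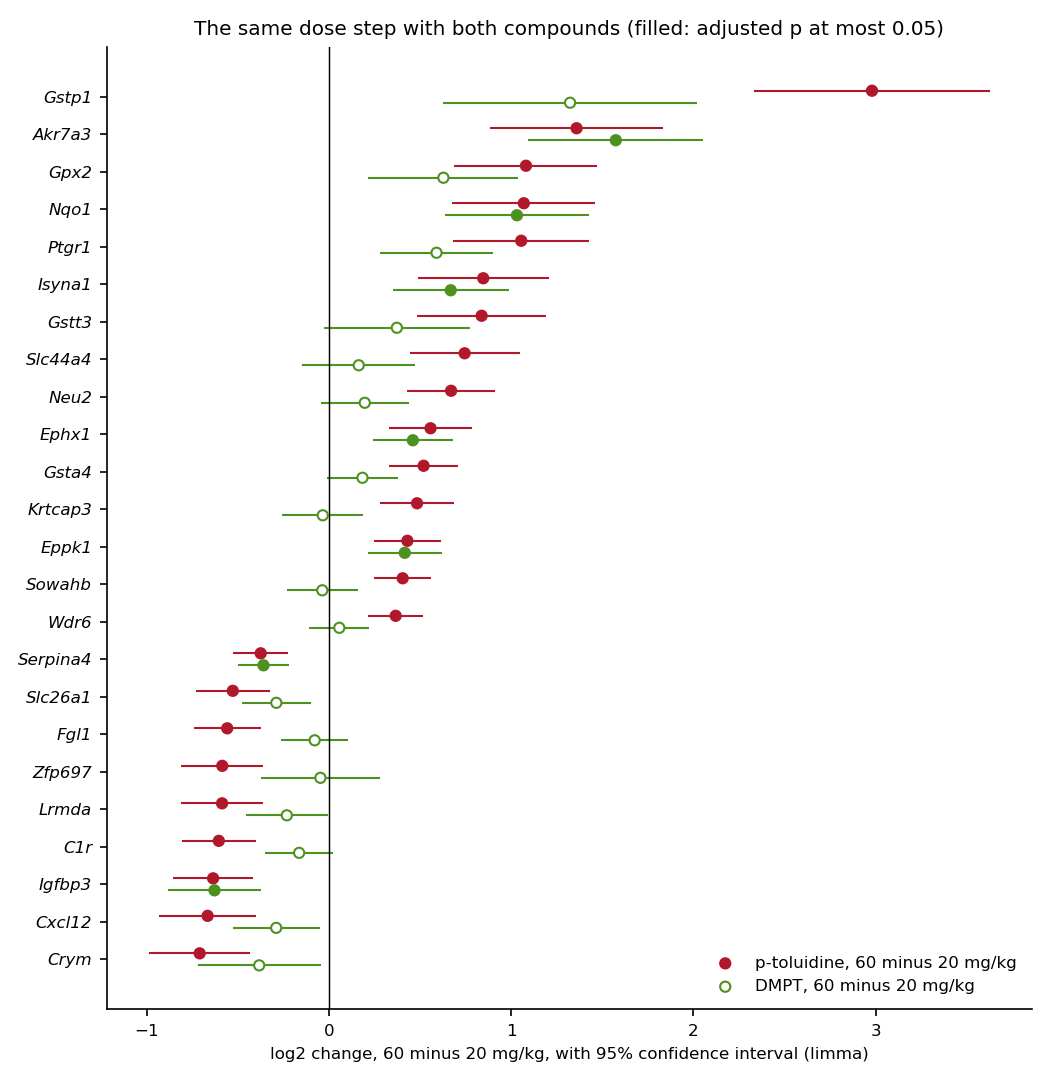
Log2 change from 20 to 60 mg/kg, with 95% confidence intervals from limma (horizontal axis), of the 24 genes called for p-toluidine (rows), with p-toluidine in red (upper) and DMPT in green (lower). Filled points have an adjusted p of at most 0.05: all 24 are filled for p-toluidine, by which they were chosen, and 7 for DMPT, and no difference between the compounds was called.

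The genes were also read through 44 lists of pathways and cell types, of which 8 had a called member and 36 had none. Of 36 measured NRF2 targets, 6 rose and 0 fell (Gstp1, Akr7a3, Gpx2, Nqo1, Ptgr1 and Ephx1), beside 0.106% of all genes that rose. The list's median change was 0.22, against -0.0021 for all genes, and 30 of its members lay above 0. Among members that did not pass, Gstm1 had 0.43 ± 0.09 (limma adjusted p = 0.062), Gsta3 0.73 (limma adjusted p = 0.50) and Hmox1, heme oxygenase, 0.27 (limma adjusted p = 0.594). Against vehicle, 14 NRF2 targets were called higher and 2 lower at 60 mg/kg, where 3.01% of all genes were higher and 3.59% lower. With 20 mg/kg, 8 of these targets passed upward and 1 downward, beside 0.626% and 0.457% of all genes. The median log2 level of the list on single arrays ranged from 6.79 to 7.28 at 60 mg/kg and from 6.50 to 6.88 at 20 mg/kg.

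Of 20 glutathione S-transferases, 3 rose, 0 fell and 17 lay above 0, with a median change of 0.16. Over all genes 0.106% rose and 0.0703% fell, and these shares stand beside each count of calls in this paragraph. Of 31 genes of fetal liver and altered foci, 5 rose and 0 fell, all of them also NRF2 targets (Gstp1, Akr7a3, Nqo1, Gpx2 and Ephx1). The median of that list was 0.06, and 14 of its 31 members had a mean below the median probe set. Of 17 aldo-keto reductases, Akr7a3 rose, and of 10 targets of the aryl hydrocarbon receptor, Nqo1 did. The median change of the receptor's list was -0.05, with 4 of the 10 members above 0 and 6 below it. Cyp1a1, the receptor's most inducible target, was measured at 4.96, 3.19, 3.58, 4.26 and 5.10 at 60 mg/kg, against 3.52, 3.10, 2.39, 2.88 and 2.33 at 20 mg/kg. The doses overlapped, and the change was 1.38 ± 0.44 (limma adjusted p = 0.329). Among the members below 0, Cyp1a2 had -0.35 (limma adjusted p = 0.439) and Ahr, the receptor itself, -0.43 (limma adjusted p = 0.329). Ephx1 was the only called member of the 21 CAR and PXR targets and of the 23 p53 and DNA damage genes, whose medians were -0.03 and 0.10, and Gpx2 was the only called one of 36 glutathione and thioredoxin genes.

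**Figure D5:**
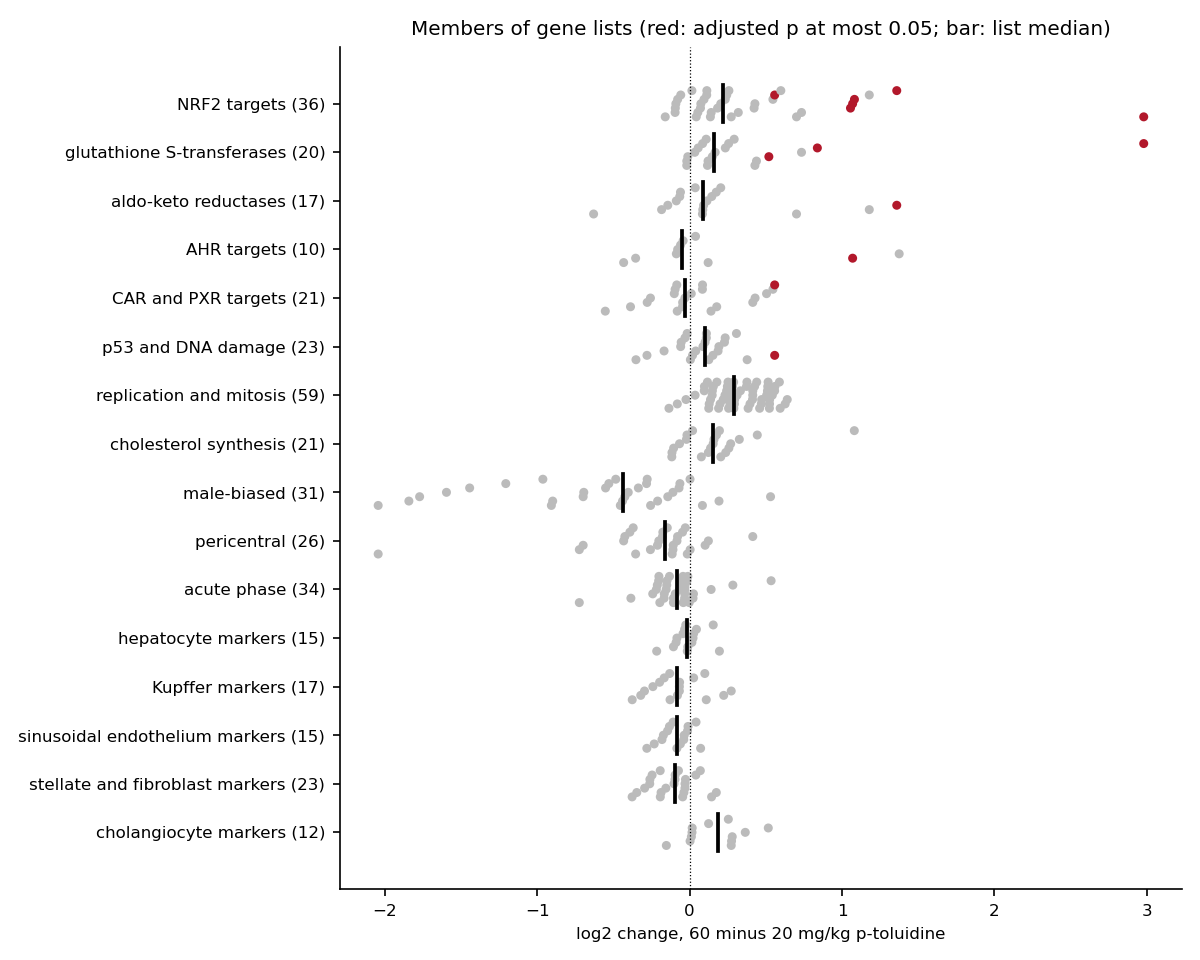
Log2 change from 20 to 60 mg/kg of p-toluidine (horizontal axis) of each member of 16 lists (rows, number measured in brackets). Red points passed an adjusted p of at most 0.05 and bars are list medians, which run from 0.29 for replication and mitosis to -0.44 for male-biased genes, both lists without a called member.

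Male-biased liver genes, which in the rat depend on pulses of growth hormone, had the lowest median of the lists shown, -0.44, with 27 of 31 members below 0, but 0 passed by limma (18 had an unadjusted p under 0.05, all lower). Cyp2c11, a cytochrome P450 made by male and hardly by female rats, was measured at 8.41, 9.23, 9.11, 8.55 and 9.22 at 60 mg/kg, against 9.66, 9.77, 11.13, 10.89 and 11.04 at 20 mg/kg. The ranges of the doses were separate, and the change was -1.60 ± 0.39 (limma adjusted p = 0.12). Against vehicle it was -2.07 at 60 mg/kg (limma adjusted p = 0.000996) and -0.48 at 20 mg/kg (limma adjusted p = 0.732). Mup5, a urinary protein of male rats, was measured at 2.98, 2.98, 2.38, 2.46 and 2.49 at 60 mg/kg, against 2.61, 3.66, 7.08, 5.31 and 4.86 at 20 mg/kg. At 60 mg/kg all arrays were low, and at 20 mg/kg they spread over more than 4 log2 units and overlapped them, with a change of -2.04 ± 0.92 (limma adjusted p = 0.59). Ghr, the growth hormone receptor, was measured at 8.84, 9.07, 8.97, 8.83 and 8.79 at 60 mg/kg, against 9.33, 9.14, 9.41, 9.31 and 9.35 at 20 mg/kg, without overlap, at -0.40 ± 0.09 (limma adjusted p = 0.064). Of the 31 male-biased genes, 16 were called lower at 60 mg/kg against vehicle (3.59% of all genes were) and 0 at 20 mg/kg (0.457%). Of 19 liver genes higher in female rats, 12 lay above 0 and 7 below in the step, with a median of 0.12 and 0 calls by limma. Against vehicle at 60 mg/kg, 1 of the 19 was called higher and 4 lower, beside 3.01% and 3.59% of all genes.

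Genes of DNA replication and mitosis leaned upward without a call. Of 59 measured, 56 lay above 0, with a median change of 0.29, and 0 passed by limma (16 had an unadjusted p under 0.05). Ccna2, the S-phase cyclin, had 0.63 (limma adjusted p = 0.68) and Mki67, the proliferation marker, 0.56 (limma adjusted p = 0.79). The median log2 level of the list was 4.52, 4.23, 3.47, 4.02 and 4.33 on the 5 arrays at 60 mg/kg, against 3.60, 3.52, 4.10, 3.96 and 3.77 at 20 mg/kg. Replicate 3 of 60 mg/kg was the lowest of the 10, so the doses overlapped. In the DMPT step, 4 of the 59 were called higher (0.211% of all genes were), with a median of 0.73.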

How the data were processed

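The authors deposited 1 table of log2 values for all 60 arrays. The submitters' processing notes name RMA, with no version, and the log2 scale was read from the values. The 57 control probe sets were left out. Symbols came from the platform's annotation: 20826 probe sets had 1 symbol, 436 several and 9780 none. A gene was represented by its brightest probe set over all 60 arrays.

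Groups followed the sample titles. Changes were fitted with limma 3.58.1 in R 4.3.3 (lmFit, contrasts and eBayes) on all 30 p-toluidine arrays. All 60 arrays were used for the DMPT step and for differences between compounds. Benjamini-Hochberg adjustment was over 31042 probe sets, with a threshold of 0.05. The code was tested on simulated data. Named genes are the 15 largest called rises and falls, filled by lowest p where fewer were called, the largest called step differences and up to 4 members of each list. The members and lists were chosen with earlier results of these data known. The number of arrays limits the precision. Alternatives changed the normalization, filters, arrays and model.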

Additional observations from a re-analysis of the deposited data

Results flagged for a closer look

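The 30 genes named for the step were the 24 called ones and then the uncalled falls of lowest p. In the 60 groups of 5 arrays behind them, 3 arrays stood apart from the other 4 of their dose by Dixon's test. Chance flags about 1 in 20 groups, which is 3 of 60. Gstt3 in replicate 2 of 60 mg/kg was at 9.43, with the others from 10.07 to 10.15. Gpx2 in replicate 2 of 20 mg/kg was at 5.14, with the others from 4.58 to 4.72. Igfbp3 in replicate 3 of 20 mg/kg was at 6.93, with the others from 7.23 to 7.31.

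The change from 20 to 60 mg/kg differed from the change from 60 to 120 mg/kg, by a limma test of the difference, for 3 probe sets. Akr1b8 differed by -2.63 (95% interval -3.54 to -1.72, limma adjusted p = 0.0252), the second probe set of Car2 by -1.37 (-1.82 to -0.92, limma adjusted p = 0.0213) and an unnamed probe set by 1.26 (0.81 to 1.71, limma adjusted p = 0.0255). The unnamed probe set changed by 0.50 from 20 to 60 mg/kg and by -0.76 from 60 to 120 mg/kg. All 3 lost the call with only the 15 arrays of these doses in the fit.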

How the results depend on the processing

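Replicate numbers did not pair the arrays: deviations of same-numbered arrays correlated at -0.33 to 0.13, and no array was most like its own number in the other dose. With the replicate block the step again had 33 calls, 31 of them shared. The call count of the step was 34 to 43 under 7 alternatives (median centring, brighter probe sets only, gene means, quantile normalization, RNA quality as covariate, trended and robust eBayes, array weights). It was 5 (3 higher, 2 lower) with only the 10 arrays, which leaves fewer samples, and 10 to 53 when 1 array was left out, with 4 to 23 higher and 6 to 30 lower. Against vehicle, 20 mg/kg had 394 calls with only the brighter probe sets, where fewer were tested. The step against the next one had 0 calls with only its 15 arrays and 0 to 9 without 1 array: 0 without replicate 2 of 120 mg/kg or replicate 3, 4 or 5 of 60 mg/kg, 1 without replicate 1 of 20 or 60 mg/kg, 5 without replicate 2 of 60 mg/kg or 3 of 120 mg/kg, and 9 without replicate 5 of 120 mg/kg. The differences between compounds and from the previous step had 0 under every alternative run. Without 1 array, the difference between doses ranged from -0.016 to 0.14 for beta-actin and from -0.0023 to 0.043 for Gapdh. Over 175 named genes and 3300 pairs of gene and alternative, 3151 kept direction and call, 118 lost the call, 29 gained one and 2 turned: S100a9 ranged from -0.0075 (without replicate 3 of 60 mg/kg) to 0.26, and Fcgr3a from -0.27 to 0.044 (without replicate 4 of 60 mg/kg), when 1 array was left out, neither called; the cause was not tested. Of the 24 called genes, 6 kept the call in all 10 fits without 1 array and 2, Gstp1 and Igfbp3, under every alternative.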

Other observations

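Several lists with no called member still lay to one side of 0 between 60 and 20 mg/kg. Of 26 pericentral hepatocyte genes, 22 lay below 0 with a median change of -0.16, and Oat, ornithine aminotransferase, had -0.72 (limma adjusted p = 0.37). Of 34 acute phase plasma proteins, 29 lay below 0 with a median of -0.08, and of 40 proteasome subunits 33 did with a median of -0.06. Of 28 immediate early genes, 23 lay above 0 with a median of 0.14. Atf3, a stress-induced transcription factor among them, had 1.40 ± 0.48 (limma adjusted p = 0.399), and replicate 4 of 60 mg/kg, at 6.20, lay above the other 4 of its dose, at 1.98 to 3.36. The median log2 level of the immediate early list was also highest on that array, at 5.13. On the other arrays at 60 mg/kg it was 3.45 to 4.16, and at 20 mg/kg it was 3.76 to 4.27.

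Insig1, a sterol-regulated brake on cholesterol synthesis, was at 9.47, 9.70, 9.27, 8.98 and 9.15 at 60 mg/kg, against 7.96, 8.94, 8.54, 7.89 and 7.83 at 20 mg/kg, without overlap and with a change of 1.08 ± 0.25 (limma adjusted p = 0.102). The 21 genes of cholesterol synthesis and uptake had a median of 0.15 and 0 calls, with 3 at an unadjusted p under 0.05. Abcg5 and Abcg8, which export sterols into bile, had -0.61 and -0.90 (limma adjusted p = 0.351 and 0.37). Against vehicle Abcg8 was at 0.46 at 60 mg/kg and 1.36 at 20 mg/kg, the second of these called (limma adjusted p = 0.0232). Of 12 cholangiocyte markers 11 lay above 0, with a median of 0.19 and summed linear levels of 442 to 510 at 60 mg/kg and 366 to 469 at 20 mg/kg, and Epcam had 0.52 (limma adjusted p = 0.10). Over all genes, 6998 of 14217 lay above 0. Signal was low, with 7 of the 12 markers below the median probe set. The median log2 level of the list on single arrays overlapped, at 2.19 to 2.81 with 60 mg/kg and 2.14 to 2.48 with 20 mg/kg. Slc34a2, a phosphate transporter, was at -1.05 ± 0.26 (limma adjusted p = 0.14) with overlapping arrays.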
